A study of Homo sapiens with 6 samples.

Results

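Nucleoporins and nuclear transport receptors are the proteins that build the nuclear pore and carry cargo through it. Their transcripts were compared here between 3 RNA-seq libraries of the line MDA-MB-231 after the vehicle DMSO (0 nM drug, labelled P0) and 3 after 50 nM panobinostat (P50), each for 24 h. MDA-MB-231 is an established human triple-negative breast cancer line, and panobinostat is a broad inhibitor of histone deacetylases, the enzymes that remove acetyl groups from histones and other proteins. According to the series' design text, the conditions were repeated independently, and its stated interest is how gene expression adapts to the drug. Both groups carry the line's own genotype and differ, per the labels, only in treatment. The members were taken by symbol: names that begin with NUP and a digit, KPNA, KPNB, IPO and a digit, XPO or TNPO, together with POM121, NDC1, RAN, RANBP2, SEH1L, AAAS and TPR. This gave 56 of the 30051 genes in the table, 54 of them protein-coding and 2 non-coding (NUP50-DT and IPO9-AS1).

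The nuclear pore complex is a ring-shaped channel in the nuclear envelope, built from a scaffold of Y-shaped and inner ring complexes, a central channel lined by nucleoporins with phenylalanine-glycine repeats, filaments on the cytoplasmic side and a basket on the nuclear side. Importins bind proteins with a nuclear localisation signal in the cytoplasm and release them when they meet the GTP-bound form of the small GTPase Ran in the nucleus, whereas exportins bind their cargo together with Ran-GTP and release it in the cytoplasm. Dividing cells build new pores in every interphase, and several nucleoporins and importins also act in mitotic spindle assembly.

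Total counts ranged from 5389638 to 15106148 over the 6 libraries. The cell line's markers fitted its label in part: VIM and CD44 were abundant, with means of 2567 and 761 CPM (counts scaled to 1000000 per library) in DMSO, and ESR1, PGR, CDH1 and CLDN3 lay under 1 CPM, while ERBB2 stood at 62.4 CPM, EPCAM at 18.5 CPM and CLDN7 at 15.5 CPM. CLDN4 was low, at 1.24 CPM in DMSO and 4.05 CPM in panobinostat, a log2 fold change of 1.64 (edgeR adjusted p = 0.00308). Panobinostat replicate 4 stood apart from panobinostat replicates 1 and 2, with values between theirs and those of DMSO for most members. Counts are therefore given with and without it, and the pooled biological coefficient of variation was 0.112 with that library and 0.0283 without it.

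Of the 56 members, 51 had enough counts to be tested. Under panobinostat 31 of them were lower and 5 higher, and 15 did not pass the test, which was edgeR's quasi-likelihood test with Benjamini-Hochberg adjustment over all genes tested and a threshold of 0.05. Among all 13341 genes tested, 58.9% passed it, 30.2% higher and 28.6% lower, against 60.8% of the tested members that were lower and 9.80% that were higher. The median log2 fold change of the tested members was -0.29, and that of all tested genes was 0.00. The scaling between libraries (TMM) centres most genes near 0, so the value for all genes is largely set by it. All levels and changes here are thus relative to the other transcripts of a library. Over the mean of DMSO, the members' median log2 change was -0.32 in panobinostat replicate 1, -0.40 in replicate 2 and -0.17 in replicate 4, a spread of 0.116 (SD, n = 3). The 2 groups of libraries did not overlap for 40 of the 51 members, where 69.0% of all tested genes showed no overlap. Without panobinostat replicate 4, 36 members were lower and 8 higher, where 74.6% of all tested genes were called, 36.9% lower and 37.6% higher. In bulk RNA, fewer cells of a type and less RNA per cell cannot be told apart.

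**Figure D1:**
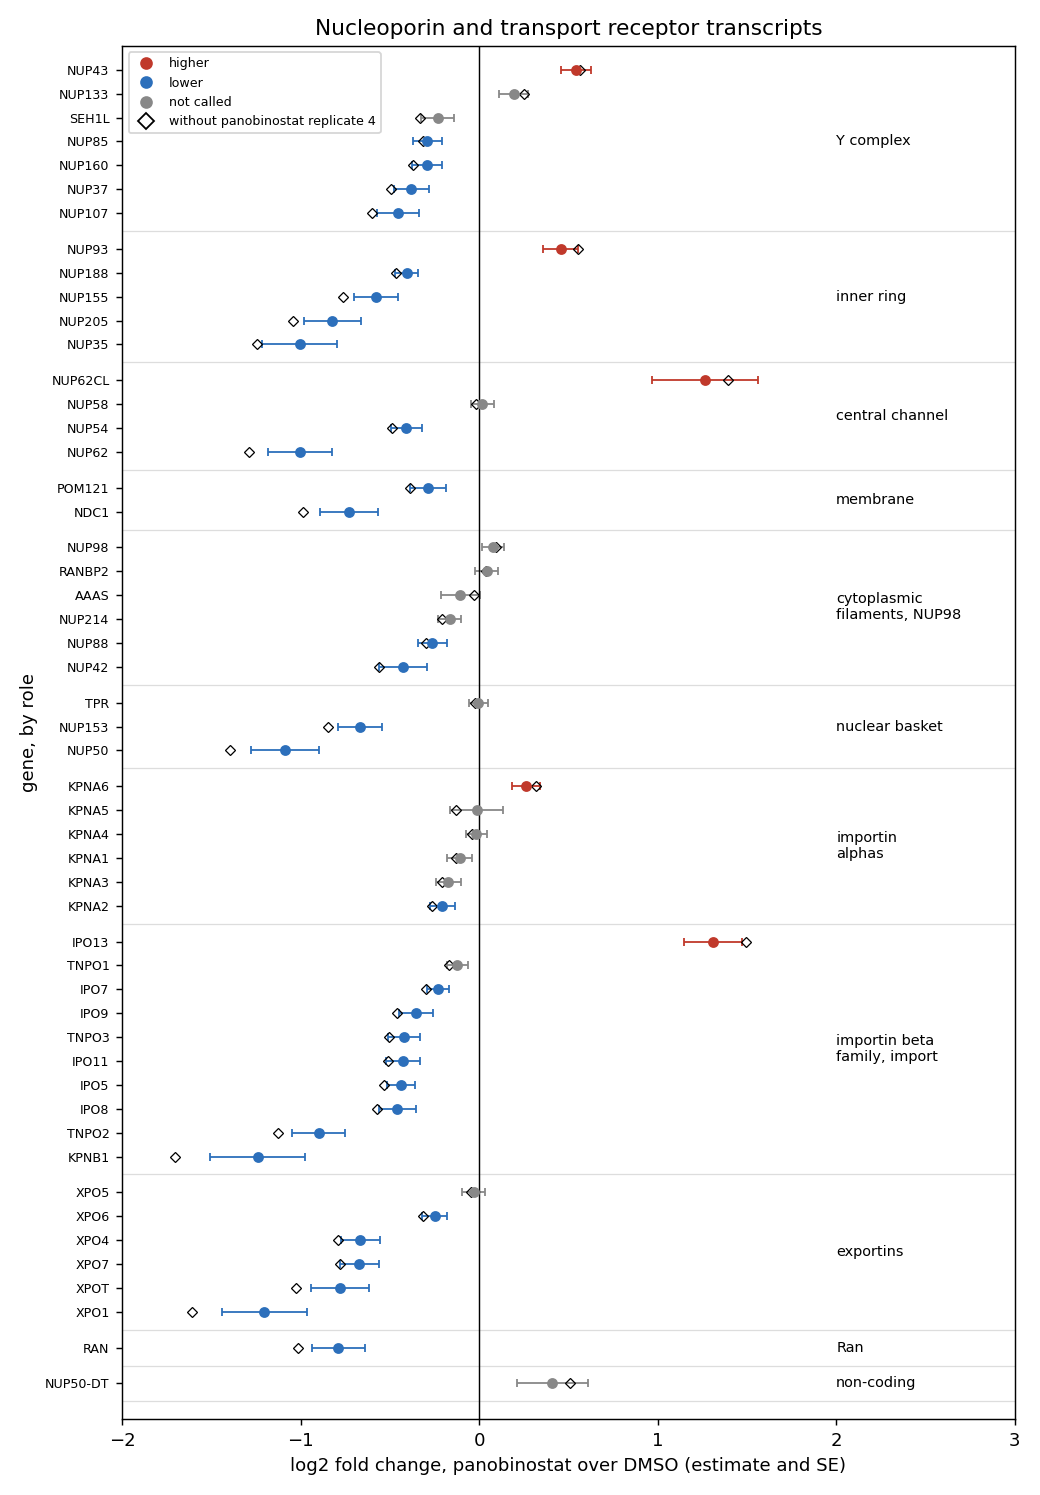
Log2 fold change of panobinostat over DMSO (x axis, estimate with SE, n = 3 libraries in each group) for each of the 51 tested members, grouped by role (y axis); red points are higher, blue points lower and grey points not called at an adjusted p of 0.05 (edgeR), and open diamonds give the estimate without panobinostat replicate 4. Most blue points lie between -0.2 and -1.3, with KPNB1, XPO1 and NUP50 farthest to the left, and IPO13 and NUP62CL stand farthest to the right.

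The summed level of all 56 members was 10603, 10226 and 10247 CPM in DMSO replicates 1, 2 and 3 and 7394, 7189 and 8769 CPM in panobinostat replicates 1, 2 and 4. All 3 treated libraries lay below all 3 vehicle libraries. The transport receptors (importins, transportins and exportins) summed to 6005, 5797 and 5816 CPM in DMSO and to 3969, 3884 and 4857 CPM in panobinostat, with 14 of 22 tested genes lower and 2 higher (17 and 2 without panobinostat replicate 4). For the nucleoporins the sums were 3962, 3820 and 3826 CPM in DMSO and 3107, 3000 and 3451 CPM in panobinostat, with 16 of 27 tested genes lower and 3 higher (18 and 5 without panobinostat replicate 4).

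Of the 5 members called at least 2-fold lower (a class that held 4.66% of all tested genes), 1 was an import receptor, 1 an exportin and 3 were nucleoporins: KPNB1, XPO1, NUP50, NUP62 and NUP35. IPO13 and NUP62CL were at least 2-fold higher, as were 10.9% of all tested genes. The number of falls of this size moved with single libraries. It was 9 without panobinostat replicate 4, with TNPO2, NUP205, XPOT and RAN added, where 9.21% of all tested genes were in this class and 13.7% were at least 2-fold higher, and it was 2, KPNB1 and XPO1, without panobinostat replicate 1 or without panobinostat replicate 2. NUP62 and NUP35 lay close to this limit and missed it with upper-quartile factors or library size only, which left 3 falls. Without DMSO replicate 1, NUP62CL was at 0.99 on the log2 scale, which left 1 rise. Promoters of 3 of these falls and 1 rise are shown here as examples of members with large changes and because those of NUP50 and NUP62 share a run of letters. Each runs 5' to 3' on the gene's strand, from 250 bases before to 50 bases after the RefSeq start site in GRCh38.p14, and capitals mark matches to the motifs searched. The XPO1 promoter lies at chr2:61538307-61538606 on the minus strand, that of NUP50 at chr22:45163675-45163974 on the plus strand, that of NUP62 at chr19:49929455-49929754 on the minus strand and that of IPO13 at chr1:43946700-43946999 on the plus strand.
XPO1: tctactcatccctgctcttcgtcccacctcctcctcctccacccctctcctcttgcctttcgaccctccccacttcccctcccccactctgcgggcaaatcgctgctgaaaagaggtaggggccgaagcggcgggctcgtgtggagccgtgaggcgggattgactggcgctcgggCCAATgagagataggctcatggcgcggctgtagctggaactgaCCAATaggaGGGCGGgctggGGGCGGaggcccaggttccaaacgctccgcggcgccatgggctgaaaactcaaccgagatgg
NUP50: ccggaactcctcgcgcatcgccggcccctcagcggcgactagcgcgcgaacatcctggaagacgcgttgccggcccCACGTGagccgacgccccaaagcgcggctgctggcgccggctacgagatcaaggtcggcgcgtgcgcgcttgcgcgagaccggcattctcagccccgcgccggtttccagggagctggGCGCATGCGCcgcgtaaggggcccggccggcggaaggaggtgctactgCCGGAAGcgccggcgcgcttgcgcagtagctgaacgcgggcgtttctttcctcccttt
NUP62: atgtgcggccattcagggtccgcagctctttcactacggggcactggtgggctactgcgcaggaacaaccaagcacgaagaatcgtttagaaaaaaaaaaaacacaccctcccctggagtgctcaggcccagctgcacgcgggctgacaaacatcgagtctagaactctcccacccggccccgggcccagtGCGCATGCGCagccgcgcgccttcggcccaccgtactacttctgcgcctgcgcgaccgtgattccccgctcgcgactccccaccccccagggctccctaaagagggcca
IPO13: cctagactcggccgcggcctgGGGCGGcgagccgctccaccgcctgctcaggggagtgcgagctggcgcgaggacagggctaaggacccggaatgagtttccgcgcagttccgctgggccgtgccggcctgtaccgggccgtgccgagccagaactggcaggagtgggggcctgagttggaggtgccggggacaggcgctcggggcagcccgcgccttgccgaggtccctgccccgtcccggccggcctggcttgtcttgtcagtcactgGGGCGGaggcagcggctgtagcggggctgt
In NUP50 and NUP62 the capital run GCGCATGCGC is a pair of overlapping matches, 1 on each strand, to the motif of NRF1, a factor of housekeeping and mitochondrial genes. NUP50 also holds the ETS motif CCGGAAG and the E-box CACGTG. XPO1 holds 2 CCAAT boxes, the motif of NFY, and 2 GC boxes (GGGCGG, the motif of SP and KLF factors), and IPO13 holds 2 GC boxes. Both kinds of box also stand in the promoter of NUP93, which rose.

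Promoters were matched for 50 of the 56 members, without KPNB1, NUP43, XPO7, KPNA4, KPNA5 and KPNA7, and 9 motifs, none of which contains another, were searched on both strands. The YY1 motif AAGATGGC stood in 6 of the 50 members, all 6 among the 29 lower members with a promoter, and in 3.03% of all 27305 promoters and 5.57% of those of tested genes. The CHR motif TTTGAA stood in 10 members, 9 of them lower, and in 15.4% of all promoters and 9.43% of those of tested genes. NRF1's GCATGCGC was found in 5 members against 3.27% of all promoters and 5.54% of those of tested genes, the E2F motifs TTTGGCGC or TTTCGCGC in 3 against 1.18% and 2.08%, and the E-box CACGTG in 8 against 7.43% and 9.96%. ETS's CCGGAAG was found in 16 members against 10.7% of all promoters and 19.7% of those of tested genes, CCAAT in 23 against 35.7% and 36.9%, GGGCGG in 26 against 44.6% and 70.8% and the CREB motif TGACGTCA in 4 against 1.98% and 3.30%. By direction, GGGCGG stood in 13 of the 29 lower members, 3 of 4 higher and 9 of 13 not called. In the same order, CCAAT stood in 14, 3 and 5, ETS's motif in 11, 0 and 4 and the E-box in 5, 0 and 2. NRF1's motif stood in 4, 0 and 1, those of E2F in 3, 0 and 0 and CREB's in 1, 0 and 2. Median GC content was 62.8% in the members' promoters and 65.3% in those of tested genes. These matches describe letters in a window of 300 bases and were not tested.

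The Y complex, the scaffold that is arranged in rings on both faces of the pore, had 7 members, of which 4 were lower, 1 was higher and 2 were not called (median -0.29), or 5 lower and 2 higher without panobinostat replicate 4. Beside this and each later role count, 58.9% of all tested genes were called, 28.6% lower and 30.2% higher. Without panobinostat replicate 4 it was 74.6%, 36.9% lower and 37.6% higher. NUP107, a stem subunit, stood at 122, 109 and 120 CPM in DMSO and at 78.8, 76.1 and 102 CPM in panobinostat. All 3 treated values lay below the vehicle values. The mean fell from 117 ± 7.13 to 85.5 ± 14.1 CPM (SD, n = 3), a log2 fold change of -0.45 ± 0.12 (SE; edgeR adjusted p = 0.0114), and without DMSO replicate 1 the adjusted p was 0.0509. NUP37 changed by -0.38, NUP160 by -0.29 and NUP85 by -0.29. These 3 calls also depended on single libraries: NUP37 was lost without DMSO replicate 1 (edgeR adjusted p = 0.0567), NUP160 without DMSO replicate 1 or 3 or panobinostat replicate 1 or 2 (up to 0.0728) and NUP85 without DMSO replicate 1 or 2 or panobinostat replicate 2 (up to 0.0684).

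NUP43, a short-arm subunit of the Y complex encoded at chr6:149724315-149749358, moved the other way. It stood at 95.5, 88.8 and 85.0 CPM in DMSO and at 131, 142 and 120 CPM in panobinostat, with no overlap between the groups. Its mean rose from 89.8 ± 5.31 to 131 ± 11.2 CPM (SD, n = 3), a log2 fold change of 0.54 ± 0.09 (SE; edgeR adjusted p = 0.00213). NUP133, the stem-tip subunit, had a log2 fold change of 0.19 (edgeR adjusted p = 0.0676) and SEH1L, which also serves in a nutrient-sensing complex, one of -0.23 (0.0593). Both passed the test without panobinostat replicate 4, at 0.25 and -0.33.

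All 5 inner ring members, the scaffold around the channel, were called, 4 lower and 1 higher (median -0.58), with the same counts without panobinostat replicate 4. NUP35, which contacts the membrane (chr2:183117514-183161680), stood at 19.8, 20.2 and 20.8 CPM in DMSO and at 9.14, 7.17 and 14 CPM in panobinostat. Every treated library lay below every vehicle library. The mean fell from 20.3 ± 0.484 to 10.1 ± 3.51 CPM (SD, n = 3), a log2 fold change of -1.01 ± 0.21 (SE; edgeR adjusted p = 0.00522), or -1.25 without panobinostat replicate 4. The large scaffold protein NUP205 changed by -0.82, from 204, 198 and 201 CPM to 103, 90.6 and 148 CPM. NUP155 changed by -0.58 and NUP188, a paralogue of NUP205, by -0.41.

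NUP93, the adaptor that holds NUP188, NUP205 and the central channel complex in the ring, rose, while NUP188 and NUP205 fell. Its level was 98.5, 94.9 and 102 CPM in DMSO and 149, 138 and 117 CPM in panobinostat. The groups did not overlap, and replicate 4 was the lowest treated library. The gene, at chr16:56730129-56850286, went from 98.6 ± 3.74 to 135 ± 16.3 CPM (SD, n = 3), a log2 fold change of 0.46 ± 0.10 (SE; edgeR adjusted p = 0.00545).

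Among the 4 central channel members, 2 were lower, 1 was higher and 1 was not called, with or without panobinostat replicate 4. NUP62, the core repeat protein of the channel (chr19:49906825-49929504, promoter above), stood at 158, 161 and 165 CPM in DMSO and at 65.9, 67.1 and 109 CPM in panobinostat. All treated libraries were lower than all vehicle libraries, and replicates 1 and 2 differed little. Its mean fell from 161 ± 3.94 to 80.6 ± 24.3 CPM (SD, n = 3), 2.01-fold lower, with a log2 fold change of -1.01 ± 0.18 (SE; edgeR adjusted p = 0.00316). Other genes overlap 21.1% of the exon bases of NUP62, 12% on the same strand, so part of its count may belong to them. Its partner NUP54 changed by -0.41, and the other partner, NUP58, had a log2 fold change of 0.02 (edgeR adjusted p = 0.837).

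NUP62CL, a little-studied relative of the NUP62 carboxyl end on chromosome X (chrX:107123427-107206433), rose from a low level. It stood at 1.36, 1.71 and 2.79 CPM in DMSO and at 4.93, 4.78 and 3.61 CPM in panobinostat, 46 counts in all against 125. The 3 treated libraries were each above the 3 vehicle libraries. The log2 fold change was 1.26 ± 0.30 (SE; edgeR adjusted p = 0.00792), 2.40-fold on the fitted scale, with 1.95 ± 0.749 CPM in DMSO and 4.44 ± 0.721 CPM in panobinostat (SD, n = 3).

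Of the 4 membrane nucleoporins, 2 were tested and both were lower, with or without panobinostat replicate 4. NDC1, which anchors the pore in the envelope, changed by -0.73 ± 0.16 (SE; edgeR adjusted p = 0.00673), from 284, 261 and 254 CPM to 136, 136 and 211 CPM, with no overlap. POM121 changed by -0.29 (edgeR adjusted p = 0.0389), but its groups overlapped, and the call was lost without DMSO replicate 1 or 2 or panobinostat replicate 1 or 2 (adjusted p up to 0.142) and with library size only (0.0551). It shares reads with the near-identical paralogue POM121C, which was -0.41, so the values of both are uncertain. NUP210, another membrane nucleoporin, had 0 counts in the 3 DMSO libraries together, which allows up to 0.117 CPM, and 1 count in the panobinostat libraries. NUP210L had 3 counts in DMSO and 1 in panobinostat.

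Of the 6 members in the cytoplasmic filaments and NUP98, 2 were lower and 4 not called (median -0.14), or 3 lower and 1 higher without panobinostat replicate 4. RANBP2, the largest filament protein and a SUMO ligase, stood at 177, 176 and 165 CPM in DMSO and at 185, 170 and 178 CPM in panobinostat. The groups overlapped, and the log2 fold change was 0.04 (edgeR adjusted p = 0.595). Near-identical RGPD family genes can share reads with RANBP2, so its level is uncertain. NUP98, whose repeats bind transport receptors and RNA export factors, stood at 307, 281 and 289 CPM in DMSO and at 323, 305 and 297 CPM in panobinostat. These groups overlapped too, and the log2 fold change was 0.08 ± 0.06 (SE; edgeR adjusted p = 0.321), or 0.10 (0.0400) without panobinostat replicate 4.

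NUP214, which binds exportin complexes on the cytoplasmic face, was -0.17 (edgeR adjusted p = 0.0555), and without panobinostat replicate 4 it was called at -0.21. Its partner NUP88 changed by -0.26, a call lost without DMSO replicate 1 or 3 or panobinostat replicate 2 (edgeR adjusted p up to 0.103). NUP42, which helps mRNA leave the pore, changed by -0.43, and its call was lost when any library but panobinostat replicate 4 was left out (up to 0.0977). AAAS, the gene of triple A syndrome, had a log2 fold change of -0.10 (edgeR adjusted p = 0.439).

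Of the 3 nuclear basket members, 2 were lower and TPR was not called (median -0.67), with or without panobinostat replicate 4. NUP50, a mobile basket protein that helps importins release their cargo, stood at 146, 147 and 142 CPM in DMSO and at 54.8, 56.6 and 93.9 CPM in panobinostat. All treated libraries lay below all vehicle libraries. The group mean fell from 145 ± 2.63 to 68.4 ± 22.1 CPM (SD, n = 3), 2.13-fold lower, with a log2 fold change of -1.09 ± 0.19 (SE; edgeR adjusted p = 0.00294) and of -1.40 without panobinostat replicate 4. The gene lies at chr22:45163925-45188017, and the start site of the non-coding NUP50-DT lies 144 bases away. That transcript stood at 5.51, 5.12 and 5.90 CPM in DMSO and at 7.36, 9.01 and 5.72 CPM in panobinostat, overlapping groups with a log2 fold change of 0.41 (edgeR adjusted p = 0.107), or 0.51 (0.00989) without panobinostat replicate 4.

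NUP153, the basket protein that anchors NUP50 (chr6:17615037-17706925), stood at 307, 298 and 320 CPM in DMSO and at 174, 171 and 237 CPM in panobinostat. The groups did not overlap. Its mean fell from 308 ± 11.1 to 194 ± 37.5 CPM (SD, n = 3), a log2 fold change of -0.67 ± 0.12 (SE; edgeR adjusted p = 0.00349). TPR, the long coiled-coil protein that forms the basket's struts, stood at 295, 301 and 287 CPM in DMSO and at 290, 294 and 295 CPM in panobinostat. These values overlapped, with a log2 fold change of -0.00 ± 0.05 (SE; edgeR adjusted p = 0.947).

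**Figure D2:**
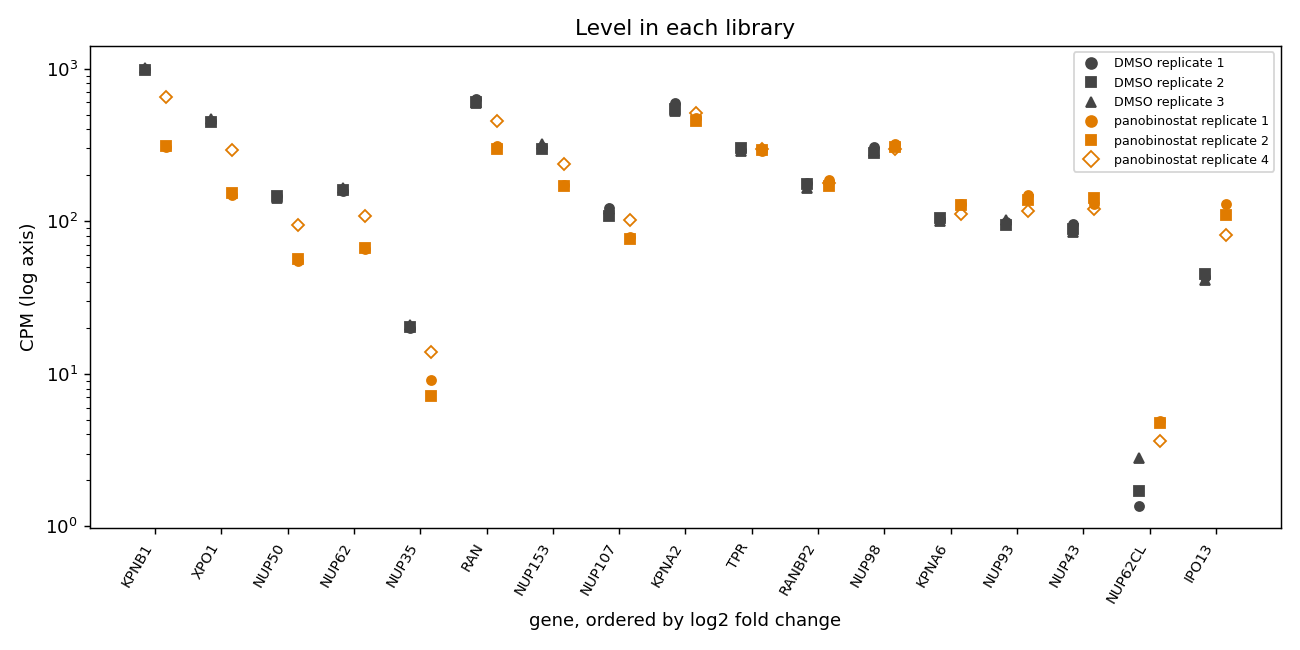
CPM in each library (1 point a library; y axis on a log scale) for the members described in depth (x axis, ordered by log2 fold change), with DMSO replicates 1, 2 and 3 in dark grey and panobinostat replicates 1, 2 and 4 in orange, replicate 4 as open diamonds. Panobinostat replicate 4 lies between the DMSO points and the other treated points for the genes that fell, as for KPNB1 with 647 CPM against 305 and 311 CPM, while TPR and RANBP2 overlap between groups.

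The importin alphas, adaptors that read the classical nuclear localisation signal and hand the cargo to KPNB1, had 7 members: of 6 tested, 1 was lower, 1 was higher and 4 were not called (median -0.06), or 3 lower and 1 higher without panobinostat replicate 4. KPNA2, the member tied most closely to proliferation (chr17:68035735-68046854), stood at 594, 546 and 529 CPM in DMSO and at 476, 457 and 514 CPM in panobinostat. Every treated library was below every vehicle library, by a narrow margin for replicate 4. The mean dropped from 556 ± 33.6 to 482 ± 29.1 CPM (SD, n = 3), a log2 fold change of -0.21 ± 0.07 (SE; edgeR adjusted p = 0.0320). This call was lost without DMSO replicate 1 (0.121), DMSO replicate 2 (0.0716), panobinostat replicate 1 (0.0870) or panobinostat replicate 2 (0.108).

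KPNA6 stood at 104, 105 and 100 CPM in DMSO and at 130, 128 and 112 CPM in panobinostat, with no overlap. Its mean rose from 103 ± 2.31 to 123 ± 9.90 CPM (SD, n = 3), a log2 fold change of 0.26 ± 0.08 (SE; edgeR adjusted p = 0.0200). The rise was lost when any library but panobinostat replicate 4 was left out (edgeR adjusted p from 0.0626 to 0.0962) and with no filter on low counts (0.111). KPNA3 was -0.17 (edgeR adjusted p = 0.0585), KPNA1 -0.11 (0.205), KPNA4 -0.02 (0.831) and KPNA5 -0.01 (0.939). Without panobinostat replicate 4, KPNA3 was called at -0.21 and KPNA1 at -0.13. KPNA7, an adaptor of the early embryo, had 6 counts in DMSO and 10 in panobinostat and was not tested.

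Import receptors of the importin beta family bind cargo or adaptors and pass through the channel by touching its repeats. Of the 10 tested, 8 were lower, 1 was higher and 1 was not called (median -0.42), or 9 lower and 1 higher without panobinostat replicate 4. KPNB1, importin beta itself (chr17:47649919-47685505), stood at 995, 977 and 1012 CPM in DMSO and at 305, 311 and 647 CPM in panobinostat. Replicates 1 and 2 lay far below every vehicle library, and replicate 4 lay between those and the vehicle libraries. Mean CPM fell from 995 ± 17.2 to 421 ± 196 CPM (SD, n = 3), 2.37-fold lower, with a log2 fold change of -1.24 ± 0.27 (SE; edgeR adjusted p = 0.00578). The estimate was -1.70 without panobinostat replicate 4, and with no filter on low counts the call was lost (adjusted p = 0.0878).

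TNPO2, which imports proteins with a proline-tyrosine signal, stood at 249, 239 and 252 CPM in DMSO and at 114, 114 and 170 CPM in panobinostat. The groups were apart, and the log2 fold change was -0.90 ± 0.15 (SE; edgeR adjusted p = 0.00252). Its close paralogue TNPO1 was -0.12 (edgeR adjusted p = 0.102), called at -0.17 without panobinostat replicate 4. The other falls were IPO8 at -0.46, IPO5 at -0.44, IPO11 at -0.43, TNPO3, an importer of splicing factors, at -0.42, IPO9, a histone importer, at -0.35 and IPO7 at -0.23. Leaving out DMSO replicate 1 ended the call of IPO9 (edgeR adjusted p = 0.0566), and leaving out panobinostat replicate 1 that of IPO7 (0.0502). Other genes on the same strand overlap 22.6% of the exon bases of IPO11.

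IPO13, a receptor that imports some cargoes and exports others (chr1:43946950-43968022), had the largest rise of the tested members. It stood at 43.1, 45.4 and 41.4 CPM in DMSO and at 130, 110 and 80.7 CPM in panobinostat. Every treated library was well above the vehicle libraries, replicate 4 least. The mean rose from 43.3 ± 1.99 to 107 ± 24.9 CPM (SD, n = 3), 2.48-fold, with a log2 fold change of 1.31 ± 0.16 (SE; edgeR adjusted p = 0.000973) and of 1.49 without panobinostat replicate 4. IPO4 had 33 counts in DMSO and 22 in panobinostat and was not tested, and other genes overlap 70.1% of its exon bases. IPO9-AS1 had 12 and 2 counts.

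Of the 6 exportins, 5 were lower and 1 was not called (median -0.67), with or without panobinostat replicate 4. XPO1, also called CRM1, exports proteins with a leucine-rich signal (chr2:61477849-61538612, promoter above), and it stood at 455, 446 and 469 CPM in DMSO and at 149, 153 and 294 CPM in panobinostat. As for KPNB1, replicate 4 lay between the others and the vehicle libraries. Its mean level fell from 457 ± 11.4 to 199 ± 82.2 CPM (SD, n = 3), 2.30-fold lower, with a log2 fold change of -1.20 ± 0.24 (SE; edgeR adjusted p = 0.00444). It was -1.61 without panobinostat replicate 4, and with no filter on low counts the call was lost (adjusted p = 0.0698).

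XPOT, the exporter of transfer RNA, stood at 330, 322 and 317 CPM in DMSO and at 161, 157 and 248 CPM in panobinostat. The groups did not overlap, and the log2 fold change was -0.78 ± 0.16 (SE; edgeR adjusted p = 0.00518). XPO4 and XPO7 each changed by -0.67, and XPO6, the actin exporter, by -0.25, a call lost without DMSO replicate 1 or 2 or panobinostat replicate 1 or 2 (edgeR adjusted p up to 0.0634). XPO5, which exports microRNA precursors, had a log2 fold change of -0.03 (edgeR adjusted p = 0.692).

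RAN, the GTPase whose nuclear and cytoplasmic forms set the direction of transport (chr12:130872066-130877678), stood at 630, 604 and 599 CPM in DMSO and at 310, 296 and 455 CPM in panobinostat. All treated libraries were below all vehicle libraries. The mean level fell from 611 ± 16.5 to 354 ± 88.3 CPM (SD, n = 3), a log2 fold change of -0.79 ± 0.15 (SE; edgeR adjusted p = 0.00393), or -1.02 without panobinostat replicate 4.

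Of 9 partners of the Ran cycle outside the symbol rule, 6 were lower, none was higher and 3 were not called (median -0.51), or 7 lower and 1 higher without panobinostat replicate 4. With all libraries 66.7% of them were called, all lower, where 58.9% of all tested genes were called and 28.6% were lower. RCC1, the nuclear exchange factor that loads Ran with GTP, changed by -0.64 (edgeR adjusted p = 0.00709). RANGAP1, the cytoplasmic activator of GTP hydrolysis, changed by -0.54 and its helper RANBP1 by -0.51. CSE1L, the exportin that returns importin alpha to the cytoplasm, went from 828, 784 and 753 CPM to 489, 493 and 619 CPM, a log2 fold change of -0.56 ± 0.10 (SE; edgeR adjusted p = 0.00280). SNUPN, the snRNP import adaptor, had the largest fall of these partners at -0.78 (edgeR adjusted p = 0.0140), lost without DMSO replicate 1 (0.0564) or panobinostat replicate 1 (0.0564). RANBP3 changed by -0.27, lost without DMSO replicate 1 or 3 or panobinostat replicate 1 (edgeR adjusted p up to 0.0789). The Ran importer NUTF2 was -0.20 (edgeR adjusted p = 0.0576), RANGRF -0.39 (0.193) and RANBP6 0.16 (0.294), and NUTF2 and RANBP6 were called without panobinostat replicate 4, at -0.26 and 0.25.

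Among 6 pore-associated genes that the symbol rule leaves out, 3 were lower and 3 not called (median -0.07), or 3 lower and 1 higher without panobinostat replicate 4. With all libraries 50% of them were called, against 58.9% of all tested genes. The falls were POM121C at -0.41, the mRNA export factor RAE1 at -0.26 and AHCTF1, which recruits the Y complex to chromatin, at -0.20. Each of the last pair was lost when any library but panobinostat replicate 4 was left out (edgeR adjusted p up to 0.125 for RAE1 and 0.102 for AHCTF1), and AHCTF1 also with library size only. SEC13, a Y complex subunit shared with COPII vesicle coats, was 0.18 (edgeR adjusted p = 0.0578), called at 0.21 without panobinostat replicate 4, GLE1 0.06 (0.448) and TMEM33 0.05 (0.524).

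Levels of different genes were compared in TPM, which scales counts by gene length and library total. By this measure KPNA2 was the most abundant member in both groups, with mean levels of 754 TPM in DMSO and 660 TPM in panobinostat. The length counts all annotated exons of a gene, 4825 bases for RAN and 3140 for KPNA2, and may exceed that of the transcripts present. Before scaling by length, RAN stood above KPNA2 in DMSO, at 611 against 556 CPM, and below it in panobinostat, at 354 against 482 CPM. The order of these genes in DMSO therefore depends on the lengths used. In DMSO, KPNA2 was followed by KPNB1 at 552 ± 11.3 TPM and RAN at 539 ± 12.8 TPM (SD, n = 3), which lie within their joint spread. In panobinostat KPNB1, at 236 ± 110 TPM, came after RAN at 315 ± 79.2 TPM, IPO5 at 262 TPM and IPO7 at 238 TPM, ranks that its own spread does not separate. XPO1 went from 166 to 73.0 TPM. Across the 51 tested members, the log2 fold change correlated with the log2 level in DMSO at Pearson r = -0.47 and Spearman rho = -0.41. Across 13322 tested genes the values were r = -0.46 and rho = -0.31. These correlations are across genes of the same 6 libraries, which share DMSO levels with the fold changes, and are descriptions.

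**Figure D3:**
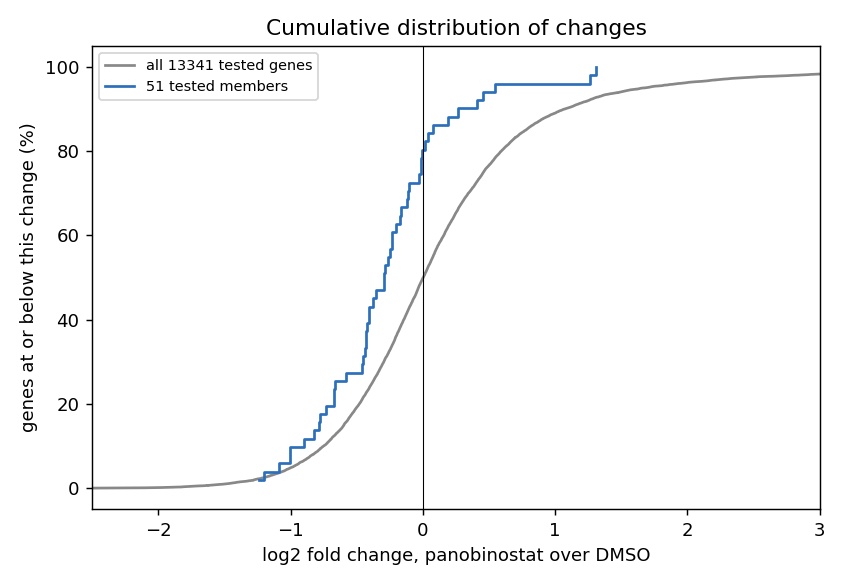
Cumulative share of genes (y axis, %) at or below each log2 fold change of panobinostat over DMSO (x axis) for all 13341 tested genes (grey) and the 51 tested members (blue). The members' line lies above that of all genes over most of the range, with a median of -0.29 against 0.00, and it ends at 1.31 while that of all genes runs on.

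Panobinostat replicate 4 was intermediate for the called members, but not for some that were not called, such as AAAS, RANBP2 and TPR. For all 36 called members its value lay between the DMSO mean and the mean of panobinostat replicates 1 and 2, and all 36 kept their direction and call without it. Replicate 4 was part of the fit that made these calls, so a member in which it went the other way was less likely to be called. Without it, 74.6% of all tested genes were called, against 58.9% with it, so keeping a call was likely too. The matching counts over all called genes are not given here. Among the 17 called members with an absolute log2 fold change of 0.5 or more, replicate 4 showed a median of 44.6% of the log2 change seen in replicates 1 and 2, with a range of 34.8% to 69.6%. The 14 falls among them ran from 34.8% to 57.8% and the 3 rises (IPO13, NUP62CL and NUP43) from 61.2% to 69.6%, a difference that was not tested. It did not hold for the called members with smaller changes. Their falls ran from 29.7% (NUP42) to 79.4% (NUP85), and their rises, NUP93 and KPNA6, stood at 46.0% and 37.5%.

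**Figure D4:**
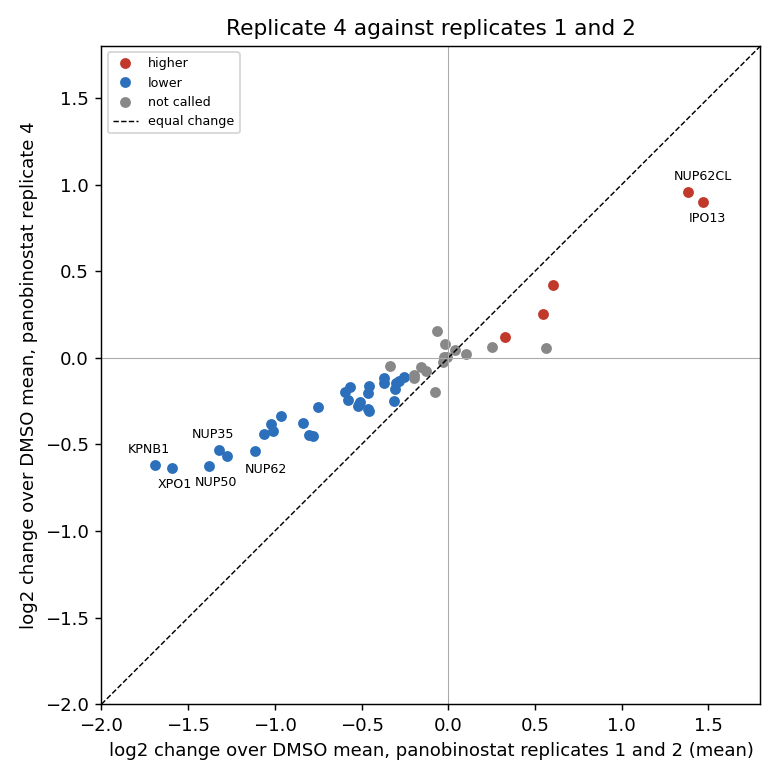
Log2 change over the DMSO mean in panobinostat replicates 1 and 2 (x axis, mean) and in panobinostat replicate 4 (y axis) for each of the 51 tested members, with the dashed line marking equal change. The called members lie on the same side of 0 on both axes and nearer to 0 on the y axis, with a median of 44.6% of the change for the 17 with the larger changes.

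Markers of proliferating cells moved with these transcripts. Of 12 such genes 91.7% were called, against 58.9% of all tested genes. Of the 12, 11 were lower, none was higher, and RRM2 was not called, with a median log2 fold change of -0.93, or -1.22 without panobinostat replicate 4. RRM2 was called higher without that library, at 0.11 (edgeR adjusted p = 0.0151). The falls of MKI67, CCNB1, CCNA2, PLK1 and AURKA were lost with no filter on low counts (adjusted p from 0.0748 to 0.0831). The summed level of the 12 genes was 4907, 4880 and 4794 CPM in DMSO and 2484, 2476 and 3674 CPM in panobinostat, so replicate 4 was intermediate here too. The part of this difference in the fall of the pore and transport genes was not tested. Markers of other cell types were at or near 0: PTPRC, CD68, ALB and VWF had means of at most 1.02 CPM, and PECAM1 stood at 6.88 CPM in DMSO and 4.64 CPM in panobinostat.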

How the data were processed

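Per the labels' protocols, total RNA from an RNeasy kit was made into stranded mRNA libraries. Gene counts, whole numbers without normalization, were deposited by the authors in 6 library columns and matched to genes by gene identifier. The submitters' processing notes name GRCh38.p14 and FastQC, whereas aligner, annotation and strand setting were not given in the sources used here. Left unused were the log2 fold changes, their p-values and a sum of counts that the authors also deposited, since the file does not name the groups they compare.

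Counts were tested with edgeR 4.0.16 in R 4.3.3 (filterByExpr, TMM, robust quasi-likelihood fit with treatment only; SE is the absolute log2 fold change over the square root of F), with Benjamini-Hochberg adjustment over the 13341 genes tested and a call at 0.05. CPM is counts over the TMM-scaled total of tested genes. TPM uses the length of all exons of a gene in GENCODE 29, merged over its transcripts. The alternatives were DESeq2 1.42.0, limma 3.58.1 voom and quality weights, other scalings and filters, a replicate block and each library left out; an exact permutation test of 3 against 3 libraries cannot go below 0.1. The p-values measure the spread between these libraries, and total counts of 5389638 to 15106148 limit precision for low genes.

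All protein-coding members tested are given by fold change within their role. In depth, with every library, are the 5 largest rises and falls among called members with a mean of at least 10 CPM, called members with an absolute log2 fold change of at least 1, members called against most of their role group, and 11 genes fixed by name. NUP205, NDC1, TNPO2, XPOT, CSE1L and NUP50-DT were chosen for library values after their values were seen. The members and lists were chosen with earlier results of these data known. Positions and promoters are from RefSeq, GRCh38.p14; genes with several starts were given their first listed one.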

Additional observations from a re-analysis of the deposited data

How the results depend on the processing

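Of the members, 18 falls and 4 rises were called in the same direction under all 15 alternatives. How many of all tested genes kept their call in this way is not given here, so the members' stability has no background value. The number of members called higher was 5 and became 8 with the replicate number as a block and 8 without panobinostat replicate 4; leaving out 1 library at a time gave 4 to 8 rises, 21 to 36 falls, a median log2 fold change of -0.25 to -0.37 and 5730 to 10249 called genes among all tested. The cause was not tested. Only replicate numbers 1 and 2 occur in both groups, so the block drops DMSO replicate 3 and panobinostat replicate 4 from the treatment contrast; with it 36 members were lower and 9981 of all genes were called. Same-numbered libraries' deviations from their group means correlated at 0.0540 for replicate 1 and 0.00840 for replicate 2. The panobinostat mean includes replicate 4, which stood apart, so these correlations cannot decide whether equal numbers mark pairs. The main fit used treatment only and no pairs.

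Signs turned only for members that were not called under the setting concerned: KPNA5 to 0.000261 with upper-quartile factors, 0.0155 with library size only, and, over the libraries left out in turn, a range of -0.129 to 0.0820; TPR to 0.00959 with upper-quartile factors, 0.0253 with library size only and a range of -0.0417 to 0.00423; KPNA4 to 0.0139 with library size only and a range of -0.0489 to 0.00474; NUP58 to -0.0377 with no filter, -0.0119 with quality weights, -0.00326 with the block and a range of -0.0167 to 0.0518; RANBP2 to -0.0126 with no filter and a range of -0.00895 to 0.0744; AAAS to 0.0272 with the block; XPO5 had a range of -0.0805 to 0.0127. Low counts limit NUP210, NUP210L, KPNA7, IPO4 and IPO9-AS1, which had too few for the main test, so that test neither showed nor excluded a change in them. For IPO4, where other genes overlap 70.1% of the exon bases, limited depth and reads lost to that overlap cannot be told apart. With no filter on low counts all 56 members were tested, 31 lower and 4 higher. The falls then included a member that the main fit did not test.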

Other observations

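Genes of the nuclear lamina and inner nuclear membrane, which border the pores, moved in both directions: of 15 tested, 9 were lower, 4 higher and 2 not called (median log2 fold change -0.35; 58.9% of all tested genes were called), or 10 lower and 4 higher without panobinostat replicate 4. LMNB1, a B-type lamin, stood at 313, 318 and 309 CPM in DMSO and at 43.8, 42.6 and 182 CPM in panobinostat, a log2 fold change of -1.82 ± 0.51 (SE; edgeR adjusted p = 0.0159). It was -2.86 without panobinostat replicate 4, and the call was lost with no filter on low counts (adjusted p = 0.169). TMPO, which encodes the lamina-associated LAP2 proteins, went from 714, 710 and 710 CPM to 192, 195 and 457 CPM, a log2 fold change of -1.34 ± 0.31 (SE; edgeR adjusted p = 0.00742), also lost with no filter (0.106). The largest rise of the list was SYNE1, a linker of the nucleus to the cytoskeleton, at 0.58 ± 0.09 (SE; edgeR adjusted p = 0.00226), and LMNA, the A-type lamin, rose by 0.26.

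Of 19 tested mRNA export genes, 8 were lower, 1 was higher and 10 were not called (median -0.24), and without panobinostat replicate 4 the counts were 12 and 1. With all libraries 47.4% of the list was called, less than the 58.9% of all tested genes. The rise was NXF1, the main mRNA export receptor, which works without Ran. It stood at 99.2, 86.0 and 95.6 CPM in DMSO and at 196, 175 and 140 CPM in panobinostat, groups without overlap and a log2 fold change of 0.86 ± 0.12 (SE; edgeR adjusted p = 0.00157). The largest fall was POLDIP3, an export adaptor, at -0.80 ± 0.16 (SE; edgeR adjusted p = 0.00461), from 123, 112 and 119 CPM to 59.8, 55.9 and 88.3 CPM.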
